A study of Mus musculus with 21 samples.

Results

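The genes described here are those that load glutamate into synaptic vesicles, take it up across the cell membrane or turn it into glutamine. They were listed by gene symbol, with no threshold on measured values but with earlier results of these data known, and are 7 of the 21878 lines of the deposited count table: Slc17a6, Slc17a7, Slc17a8, Slc1a1, Slc1a2, Slc1a3 and Glul. All 7 passed the low-count filter and were tested. They were measured in spiral ganglion neurons, the neurons of the cochlea, collected by micropipette from mice at postnatal day 7, with about 50 neurons pooled into each of 21 Smart-seq2 libraries of polyadenylated RNA.

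Libraries came from 3 conditions and 2 cochlear regions. Control neurons, whose genotype is labelled WT, received EGFP from an adeno-associated virus (AAV). The DN-mHCN2 neurons received by AAV a site-mutated, dominant-negative mouse HCN2, a channel opened by hyperpolarization. The third condition received by AAV a truncated SK3 that acts as a dominant negative on SK3, a calcium-activated potassium channel. All 3 conditions thus received a virus, and a group without virus was not analysed here. The control groups had 4 libraries each from the apex and the base, the DN-mHCN2 groups had 4 and 3, and the truncated SK3 groups had 3 and 3. The viral promoter, the share of neurons infected, the mouse strain and the animals behind each library are not given in the sources used here, so p-values may measure technical spread only. The question was how blocking each channel, and the place along the cochlea, related to the transcripts for glutamate handling.

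As background, spiral ganglion neurons are glutamatergic: they receive glutamate from inner hair cells and release it onto neurons of the cochlear nucleus. VGLUT1 (Slc17a7), VGLUT2 (Slc17a6) and VGLUT3 (Slc17a8) pump glutamate into vesicles, and VGLUT3 is known as the vesicular transporter of inner hair cells. Released glutamate is cleared by excitatory amino acid transporters, of which EAAT3 (Slc1a1) is mainly neuronal and GLT1 (Slc1a2) and GLAST (Slc1a3) are mainly glial, and GLAST is known in the supporting cells around inner hair cells. Glutamine synthetase (Glul) in glia makes glutamine, which neurons take back to rebuild glutamate.

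Library totals ran from 10411634 to 15138780 counts. All 15 spiral ganglion neuron markers in the list were detected, and their summed level ran from 13800 to 29918 CPM (counts divided by the scaled library total, times 1000000) across libraries. Markers of Schwann and satellite glia summed to between 9549 and 45482 CPM, so RNA from glia that wrap these neurons was present in every library. Supporting cell markers reached 10344 CPM in DN-mHCN2 apex library 1, and macrophage markers reached 1394 and 1629 CPM in DN-mHCN2 base libraries 2 and 3. Because each library is a pool, fewer cells of a type and less RNA per cell cannot be told apart.

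Slc17a6 lies on mouse chromosome 7 at chr7:51622006-51671119, Slc17a7 on the same chromosome at chr7:45163949-45176142 and Slc1a3 at chr15:8634124-8710764 (GRCm38). Their promoters are shown because the first pair are the abundant vesicular transporters, whose balance within a library is tested here, and the third is the gene with the only call among the 7. Each sequence runs from 250 bases before to 50 bases after a RefSeq start in GRCm38.p6, on the gene's strand (plus for both Slc17 genes, minus for Slc1a3). Capitals mark TGACG, a core of CRE-type elements, GGGCGG, a GC box, and TATAAA, each searched on both strands.
Slc17a6, chr7:51621580-51621879: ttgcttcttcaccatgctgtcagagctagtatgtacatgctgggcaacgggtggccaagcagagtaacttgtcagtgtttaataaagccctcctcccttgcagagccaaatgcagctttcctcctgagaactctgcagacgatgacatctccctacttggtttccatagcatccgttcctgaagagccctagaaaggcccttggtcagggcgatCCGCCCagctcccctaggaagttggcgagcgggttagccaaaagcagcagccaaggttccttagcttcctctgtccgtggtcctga
Slc17a7, chr7:45163671-45163970: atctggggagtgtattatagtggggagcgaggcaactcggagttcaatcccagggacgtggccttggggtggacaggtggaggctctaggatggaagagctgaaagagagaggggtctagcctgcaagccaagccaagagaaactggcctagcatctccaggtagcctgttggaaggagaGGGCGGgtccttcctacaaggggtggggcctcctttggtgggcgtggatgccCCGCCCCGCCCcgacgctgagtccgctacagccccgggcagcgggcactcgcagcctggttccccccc
Slc1a3, chr15:8710758-8711057: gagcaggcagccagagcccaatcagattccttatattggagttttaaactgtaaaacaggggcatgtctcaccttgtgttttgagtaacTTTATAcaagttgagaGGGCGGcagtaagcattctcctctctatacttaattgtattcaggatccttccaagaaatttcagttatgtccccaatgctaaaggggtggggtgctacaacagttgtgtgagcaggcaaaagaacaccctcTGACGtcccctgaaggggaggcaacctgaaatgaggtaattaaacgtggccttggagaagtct
The Slc17a7 window held 3 GGGCGG matches, of which a pair overlap by a base, at a GC content of 63.7%. The Slc17a6 window held 1 GGGCGG match at 53.7% GC. A further RefSeq start of Slc17a6 has the window chr7:51624387-51624686, with 1 TGACG match, no GGGCGG and 43.0% GC. The Slc1a3 window was lower in GC, at 45.3%, and held 1 match to each of the 3 motifs. Over 32851 RefSeq promoter windows of this length, 35.7% held GGGCGG, 20.8% held TGACG, 13.6% held TATAAA and 1.79% held the full TGACGTCA, which none of these windows holds. A match is a run of letters and not evidence of binding.

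The 7 genes fell into an abundant and a scarce set. Over all 21 libraries the mean level was 193 CPM for Slc17a7, 184 CPM for Slc17a6, 145 CPM for Slc1a3 and 68.0 CPM for Glul. It was 7.42 CPM for Slc17a8, 6.83 CPM for Slc1a1 and 6.0 CPM for Slc1a2. Glul was the steadiest, with 33.3 to 91.1 CPM and a coefficient of variation of 21.5%, and Slc17a8 the least steady at 201%. Divided by the longest coding transcript, to set levels of different genes beside each other, the mean was 66.2 CPM per kb for Slc17a7, 44.5 for Slc17a6, 34.8 for Slc1a3, 24.4 for Glul, 1.80 for Slc1a1, 1.66 for Slc17a8 and 0.517 for Slc1a2. The order of the genes depends on the length used. Slc1a3 has 4163 bases by this transcript and 8537 by merged exons, Slc1a1 3800 and 8257, and Glul 2792 and 3323.

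Slc17a6, the VGLUT2 gene, was at 331, 222, 271 and 294 CPM in the 4 control apex libraries and at 108, 256, 140 and 249 CPM in the control base libraries. In DN-mHCN2 neurons it was at 172, 189, 229 and 149 CPM in the apex and at 60.7, 153 and 25.5 CPM in the base. In truncated SK3 neurons it was at 235, 179 and 212 CPM in the apex and at 95.4, 166 and 130 CPM in the base. The control apex was the highest group (280 ± 45.2 CPM, SD, n = 4) and the DN-mHCN2 base the lowest (79.7 ± 65.8, n = 3). Each group overlapped its neighbour in the order of means, which ran from the control apex through the truncated SK3 apex, control base, DN-mHCN2 apex and truncated SK3 base to the DN-mHCN2 base.

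No member passed the test for DN-mHCN2 against control over both regions, a comparison in which 6.05% of 14968 tested genes were called by edgeR at a false discovery rate of 0.05. Slc17a6 had the smallest p of the 7, at a log2 difference of -0.92 (SE 0.276, 95% interval -1.50 to -0.342, adjusted p = 0.0531). The regional values were -0.60 in the apex (adjusted p = 0.568), where 0.200% of genes were called, and -1.24 (SE 0.412, adjusted p = 0.108) in the base, where 2.14% were. The call for both regions turned on single libraries: it was made in 3 of the 15 fits that left 1 library out (control base library 1, DN-mHCN2 apex library 3 or DN-mHCN2 base library 2), and the difference was -1.35 (adjusted p = 0.00265) without the last of these. Without that library the base difference was -2.10 (adjusted p = 0.0093). It was also made without both macrophage-rich libraries (-1.10, adjusted p = 0.0207) and by DESeq2 (adjusted p = 0.0131). Summed spiral ganglion neuron markers were at 19453 to 24231 CPM in the control base. In DN-mHCN2 base libraries 1, 2 and 3 they were at 13800, 17357 and 23774 CPM, with Slc17a6 at 60.7, 153 and 25.5 CPM. The part of these markers in the difference was not tested. For truncated SK3 over both regions, where 0.735% of genes were called, no member passed either, and the Slc17a6 difference was -0.47 (SE 0.284, adjusted p = 0.600).

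Slc17a7, the VGLUT1 gene, was steady in control neurons, at 160, 198, 182 and 145 CPM in the apex and 226, 212, 153 and 206 CPM in the base. The DN-mHCN2 apex held both the lowest and the highest library of the study, with 53.2, 118, 381 and 190 CPM, and the base libraries were at 134, 75.3 and 89.1 CPM. Truncated SK3 libraries were at 165, 265 and 368 CPM in the apex and 182, 276 and 273 CPM in the base. The 3 DN-mHCN2 base libraries lay below all 8 control libraries and all 6 truncated SK3 libraries. The edgeR difference from control in the base was -1.003 (SE 0.432, adjusted p = 0.221), and over both regions it was -0.44 (adjusted p = 0.400) for DN-mHCN2 and 0.46 (adjusted p = 0.634) for truncated SK3. Between both constructs, where 0.655% of genes were called, Slc17a7 was at -0.91 in DN-mHCN2 relative to truncated SK3 (SE 0.309, adjusted p = 0.171), and without DN-mHCN2 apex library 3 at -1.20 (adjusted p = 0.0163).

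**Figure D1:**
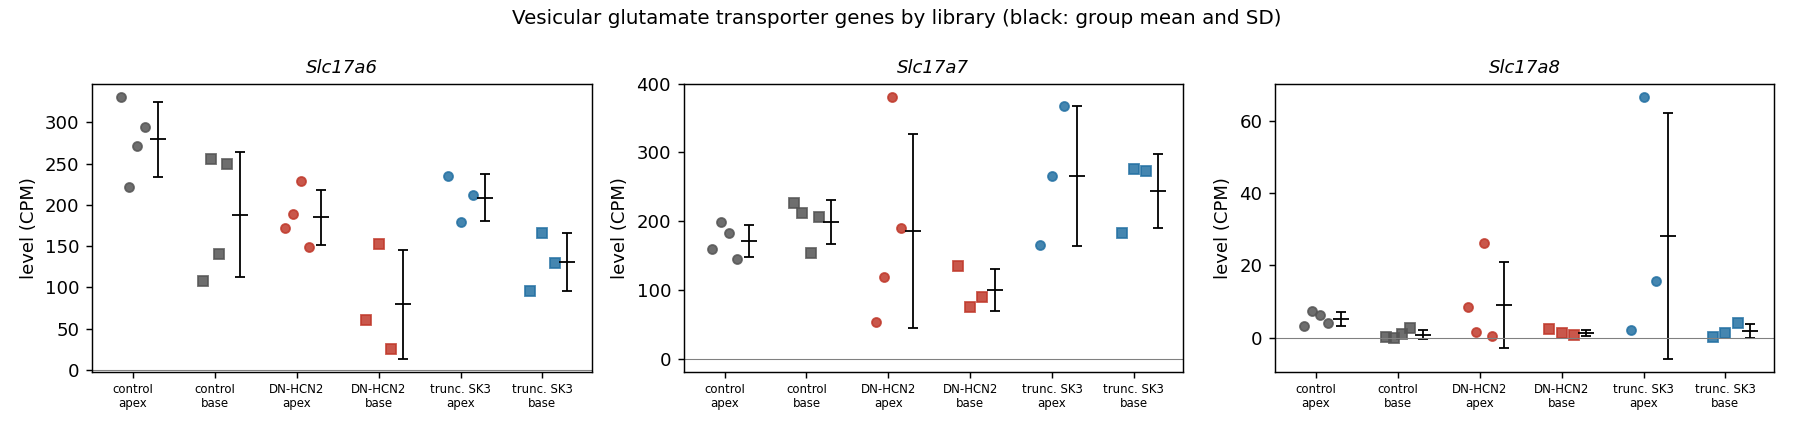
Levels of the vesicular glutamate transporter genes Slc17a6, Slc17a7 and Slc17a8 (vertical axes, CPM) in each of the 21 libraries by group, with circles for the apex, squares for the base and black marks for the group mean and SD. Slc17a6 libraries run from 25.5 CPM in the DN-mHCN2 base to 331 CPM in the control apex, while Slc17a8 exceeds 10 CPM in 3 apex libraries of the virus-carried channel groups; where the SD exceeds the mean its bar passes below 0.

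The balance of both abundant transporters was compared within libraries as the log2 ratio of the Slc17a6 count to the Slc17a7 count, which does not depend on library scaling. All 4 control apex libraries had the higher count for Slc17a6 (1.05, 0.17, 0.58 and 1.02) and all 3 truncated SK3 base libraries had the higher count for Slc17a7 (-0.93, -0.74 and -1.07). The group means were 0.70 ± 0.42 (SD, n = 4) in the control apex, -0.16 ± 0.63 (n = 4) in the control base, 0.32 ± 1.09 (n = 4) in the DN-mHCN2 apex, -0.64 ± 1.48 (n = 3) in the DN-mHCN2 base, -0.28 ± 0.70 (n = 3) in the truncated SK3 apex and -0.91 ± 0.17 (n = 3) in the truncated SK3 base. The DN-mHCN2 groups were the widest, from -1.80 in base library 3 to 1.70 in apex library 1, the library richest in supporting cell markers. Whether other cells in the pool bear on its ratio was not tested.

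The ratio was lower in truncated SK3 than in control by 0.87 on average over regions (two-sided exact permutation within region, p = 0.0139, adjusted p = 0.0833 over 6 comparisons). It did not pass after adjustment, and the adjusted p ran from 0.0343, without control base library 1, to 0.194 when single libraries were left out. For DN-mHCN2 against control the difference was -0.43 (exact permutation p = 0.372), and between constructs 0.44 (exact permutation p = 0.441). Without single libraries the first ran from -0.845 (DN-mHCN2 base library 2 out) to -0.139 (base library 3 out) and the second from 0.022 to 0.728 with the same libraries out. The base was below the apex by 0.87 in control (exact permutation p = 0.0857), by 0.97 in DN-mHCN2 (exact permutation p = 0.343; differences of -1.797 and -0.385 without base library 2 or 3) and by 0.63 in truncated SK3 (exact permutation p = 0.200, where the smallest p of that design is 0.1). Over all 3 conditions together, a comparison added after the data were seen, the base was lower by 0.82 (exact permutation within condition, p = 0.0314, not adjusted).

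**Figure D2:**
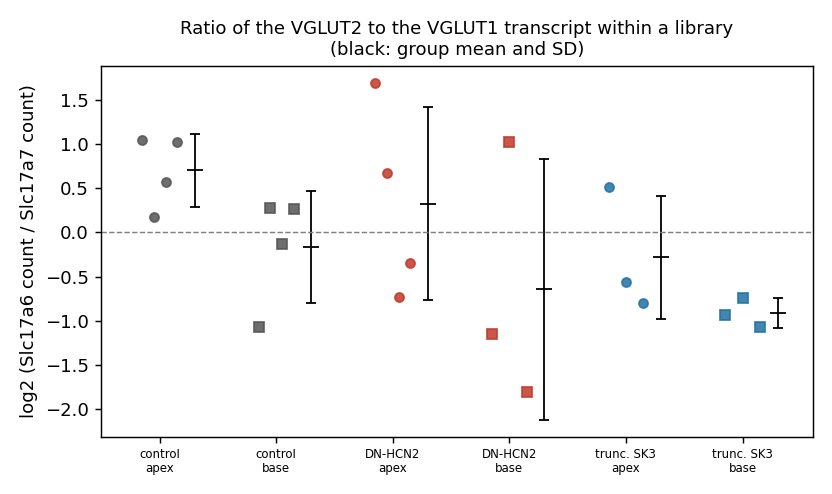
Log2 ratio of the Slc17a6 to the Slc17a7 count (vertical axis) in each library by group, with the group mean and SD in black and a dashed line at equal counts. The 4 control apex libraries lie above the line and the 3 truncated SK3 base libraries below it, and the DN-mHCN2 groups span both sides.

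The count ratio favours the longer transcript, so it does not say which transporter has more molecules. Per kb of the longest coding transcript, Slc17a6 was above Slc17a7 in 7 of 21 libraries, and per kb of merged exons in 10 of 21. In the control apex, the group where Slc17a6 stood highest, the means per kb of the longest coding transcript were 67.6 and 58.7 CPM.

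By region alone, Slc17a6 was lower in the base at a log2 difference of -0.57 in control (adjusted p = 1), -1.22 in DN-mHCN2 (adjusted p = 0.227; -2.08 and 0.0383 without DN-mHCN2 base library 2) and -0.68 in truncated SK3 (adjusted p = 0.653), with no call in the fit of all libraries. edgeR called 0 genes between regions in control, or 0% (722 at an unadjusted p under 0.05, and 83 by DESeq2), 0.214% in DN-mHCN2 and 0.0134% in truncated SK3. In the mean over conditions, added after the data were seen and calling 1.16% of genes, Slc17a6 was at -0.82 (SE 0.232, adjusted p = 0.0968). Markers of other cells also differed by region. The 6 oligodendrocyte markers summed to 27.1 to 1398 CPM in the control base, 18.3 to 35.1 CPM in the DN-mHCN2 base and 65.5 to 3396 CPM in the truncated SK3 base, and to at most 35.5 CPM in any apex library. Supporting cell markers ran from 78.2 to 369 CPM in the control base and from 477 to 2239 CPM in the control apex. They ran from 109 to 486 CPM in the truncated SK3 base and 1817 to 4061 CPM in its apex. In DN-mHCN2 the base (198 to 2365 CPM) and apex (735 to 10344 CPM) overlapped. Not every listed gene followed the sum: in control, Gjb2 reached 175 CPM in the base and 127 CPM in the apex, and Gjb6 107 and 35.4 CPM. The part of these other cells in the regional differences was not tested.

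Slc17a8, the VGLUT3 gene at chr10:89574020-89621253, was low in the base and uneven in the apex. The control apex libraries were at 3.25, 7.33, 6.37 and 3.96 CPM, and the control base libraries at 0.0872, 0, 0.95 and 2.6 CPM. The library at 0 allows up to 0.212 CPM, the level of 3 counts. DN-mHCN2 libraries were at 8.43, 1.7, 26.2 and 0.373 CPM in the apex and 2.34, 1.2 and 0.642 CPM in the base, and truncated SK3 libraries at 2.29, 66.6 and 15.7 CPM in the apex and 0.204, 1.45 and 4.06 CPM in the base. The groups of apex and base did not overlap in control and overlapped in both construct conditions.

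The base minus apex difference of Slc17a8 was -2.50 on the log2 scale in control (SE 1.24, adjusted p = 1), -2.70 in DN-mHCN2 (adjusted p = 0.449) and -3.88 in truncated SK3 (adjusted p = 0.437). In the mean over conditions it was -3.03 (SE 0.800, adjusted p = 0.0755). Against control over both regions it was at 0.71 (adjusted p = 0.687) in DN-mHCN2 and 1.74 (SE 0.902, adjusted p = 0.527) in truncated SK3, with no call. Without single libraries the first ran from 0.02 (DN-mHCN2 apex library 3 out) to 1.39 (control base library 4 out), and the second from 0.92 (truncated SK3 apex library 2 out) to 2.40 (control base library 4 out).

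The level of Slc17a8 moved with hair cell markers. In truncated SK3 apex library 2, which had the highest Slc17a8, the 12 hair cell markers summed to 724 CPM, and Otof, the gene of the synaptic calcium sensor otoferlin, was at 371 CPM, 51.3% of the sum. Some hair cell genes in the list did not follow: in the truncated SK3 apex Slc26a5 reached 0.673 CPM and Strc 2.86 CPM, against 68.8 and 20.1 CPM in the control apex, and Atoh1 was at 0 in all 3 libraries. Pou4f3, a hair cell transcription factor, was at 40.9 CPM in that library and at 42.5 CPM in control apex library 2, where Slc17a8 was at 7.33 CPM. In the base libraries Otof did not exceed 1.64 CPM, and Pou4f3 was at 0 in all 4 control base libraries. Across the 21 libraries Pearson's r of log2(CPM + 1) between Slc17a8 and the summed hair cell markers was 0.77 (permutation p = 0.00013, adjusted p = 0.00104 over 8 relations) and Spearman's rho 0.74 (permutation p = 0.00024). Without the 2 libraries farthest from the marker median r was 0.65, for deviations from the group means 0.69, and with Otof left out of the sum, a choice made after the data were seen, 0.71 (adjusted p = 0.00344). The part of hair cell RNA in the regional differences was not tested.

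**Figure D3:**
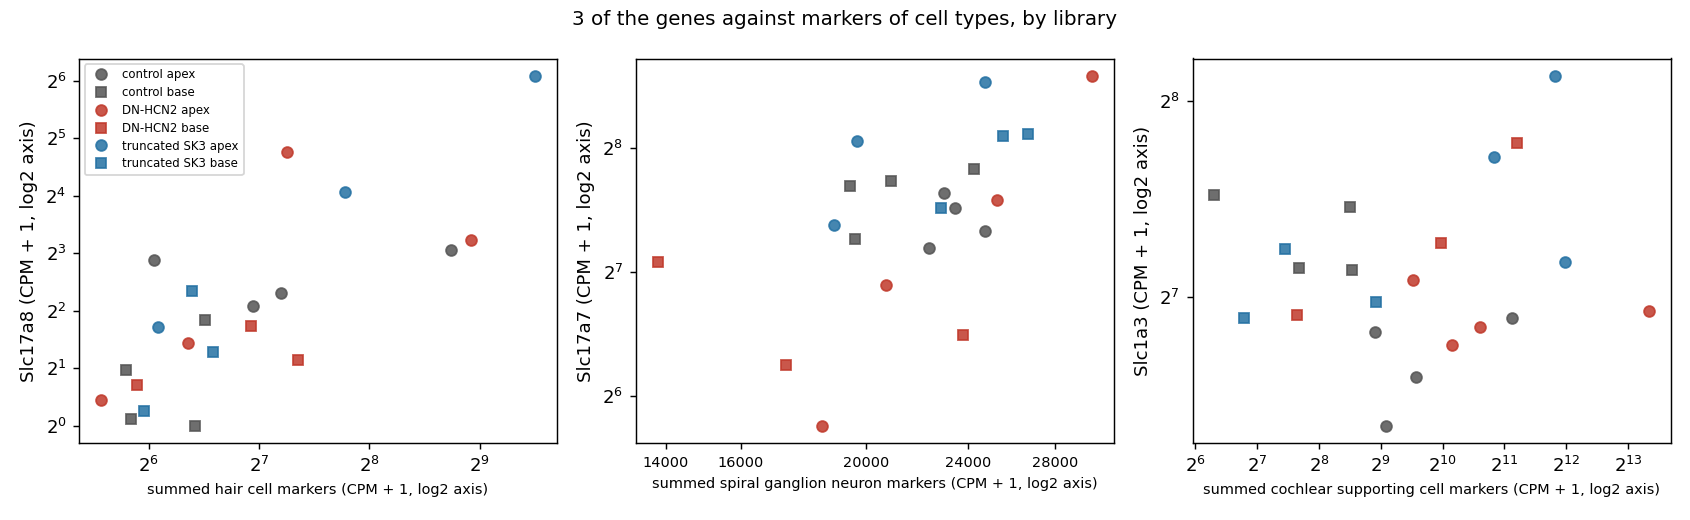
Each point is 1 of the 21 libraries, with the summed CPM of a marker list on the horizontal axis and the CPM of a gene on the vertical axis (both CPM + 1, log2 axes): Slc17a8 with hair cell markers, Slc17a7 with spiral ganglion neuron markers and Slc1a3 with supporting cell markers. Slc17a8 rises with its markers (r = 0.77) and Slc17a7 less tightly (r = 0.57), and Slc1a3 shows r = 0.16.

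Slc17a7 had r = 0.57 with the summed spiral ganglion neuron markers (permutation p = 0.00716, adjusted p = 0.0286; rho 0.65, permutation p = 0.00195), and 0.56 (adjusted p = 0.0514) without the 2 libraries farthest from the marker median. Slc17a6 had r = 0.18 with the same markers (permutation p = 0.421, adjusted p = 0.550; rho 0.03, permutation p = 0.905), and its sign turned when those libraries were left out. The libraries share depth scaling and the pooled collection.

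GLAST and glutamine synthetase were the abundant genes of the uptake side. Slc1a3 was at 112, 95.4, 118 and 80.1 CPM in the control apex and at 209, 279 and 144 CPM in the truncated SK3 apex, and these groups did not overlap. It was at 141, 140, 175 and 183 CPM in the control base and 118, 151 and 125 CPM in the truncated SK3 base, which overlapped. DN-mHCN2 libraries were at 121, 114, 107 and 135 CPM in the apex and 220, 119 and 154 CPM in the base.

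Slc1a3 was higher in the truncated SK3 apex than in the control apex by a log2 difference of 1.06 (SE 0.215, 95% interval 0.609 to 1.51, edgeR adjusted p = 0.0362), in a comparison where 0.254% of genes were called. This was the only call among 84 tests of the 7 genes in 12 comparisons. In the base the difference was -0.28 (adjusted p = 1), where 0.147% of genes were called, and over both regions 0.39 (SE 0.152, adjusted p = 0.349). The interaction with region was -1.34 (SE 0.308, adjusted p = 1), a contrast in which edgeR called 0% of genes (0, with 545 at an unadjusted p under 0.05) and DESeq2 gave Slc1a3 an adjusted p of 0.0292. Within control, Slc1a3 was at 0.66 in the base relative to the apex (SE 0.201, adjusted p = 0.603).

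The call for Slc1a3 held in 1 of 7 fits that left out a library, the fit without truncated SK3 apex library 3 (adjusted p = 0.0144), and in the others the adjusted p reached 0.332, without truncated SK3 apex library 2. The 12 supporting cell markers summed to 1817, 3602 and 4061 CPM in the truncated SK3 apex libraries and to 477, 756, 2239 and 543 CPM in the control apex libraries. Of the 12, 10 had the higher mean in the truncated SK3 apex, but only Jag1 was higher in all its libraries than in all control apex libraries. Epyc ran from 507 to 2610 CPM against 6.17 to 864 CPM in the control apex, Tectb from 91.6 to 1120 CPM against 120 to 1010 CPM, and Fgfr3 from 5.72 to 14.3 CPM against 2.24 to 42.0 CPM. Hes5 was at 0 in 1 library of each. Without the 3 libraries of these groups above 2000 CPM of these markers, which left a single truncated SK3 apex library assumed to vary like the other groups, the Slc1a3 difference was 1.11 (adjusted p = 0.597). In that truncated SK3 library the markers were still at 1817 CPM. Across all 21 libraries Slc1a3 had r = 0.16 with the summed supporting cell markers (permutation p = 0.482, adjusted p = 0.550; rho 0.09, permutation p = 0.695) and -0.06 with Schwann and satellite glia markers (permutation p = 0.798, adjusted p = 0.798; rho 0.06, permutation p = 0.801). Without the 2 libraries farthest from each marker median these r were 0.38 and 0.20, neither past the threshold.

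**Figure D4:**
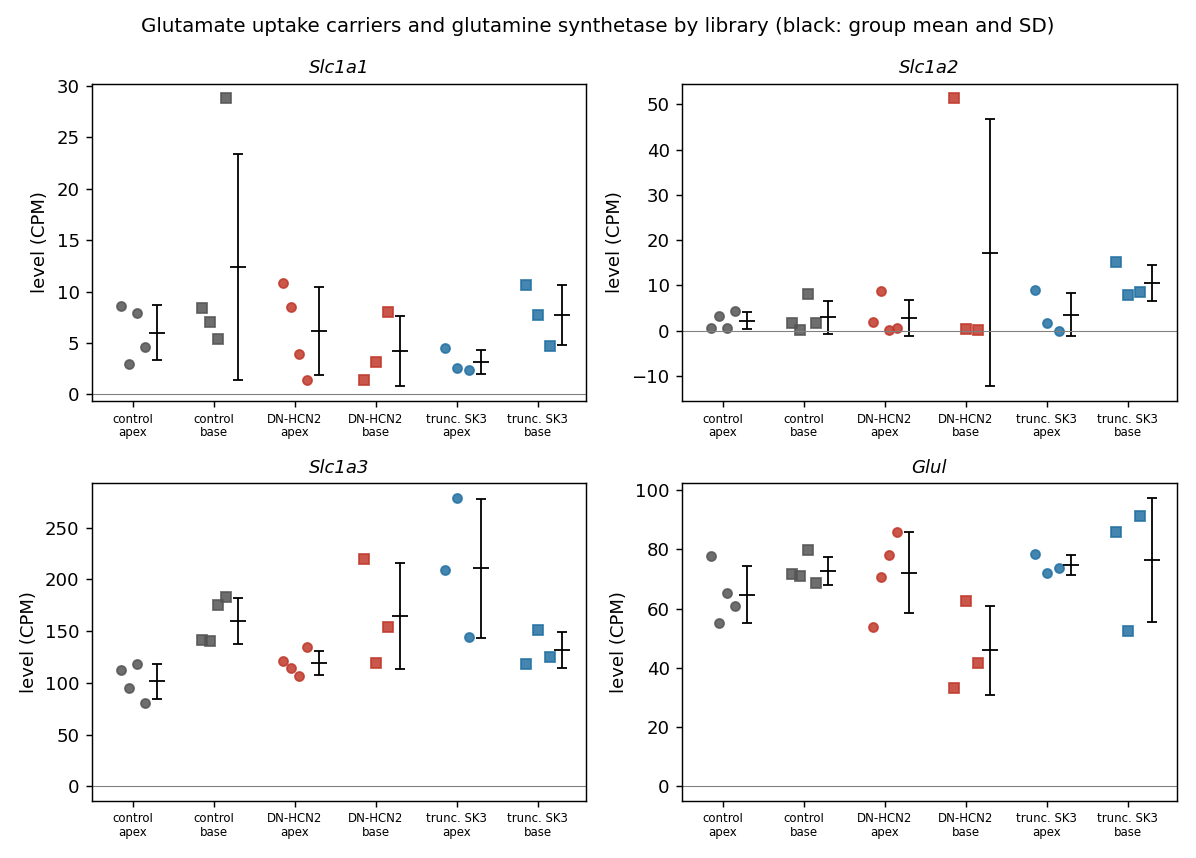
Levels of Slc1a1, Slc1a2, Slc1a3 and Glul (vertical axes, CPM) in each of the 21 libraries by group, with circles for the apex, squares for the base and black marks for the group mean and SD. The 3 truncated SK3 apex libraries of Slc1a3 (144 to 279 CPM) lie above the 4 control apex libraries (80.1 to 118 CPM); Slc1a1 and Slc1a2 each have 1 library far above its group, and where the SD exceeds the mean its bar passes below 0.

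Glul, at chr1:153899944-153909723, was at 77.6, 55.2, 65.2 and 60.8 CPM in the control apex and 71.6, 70.9, 79.7 and 68.6 CPM in the control base. DN-mHCN2 libraries were at 53.8, 70.6, 78.2 and 86.0 CPM in the apex and 33.3, 62.5 and 41.7 CPM in the base, and truncated SK3 libraries at 78.5, 71.9 and 73.6 CPM in the apex and 85.7, 52.3 and 91.1 CPM in the base. The 3 DN-mHCN2 base libraries lay below all 4 control base libraries. So did libraries of the control apex (55.2, 65.2 and 60.8 CPM), the DN-mHCN2 apex (53.8 CPM) and the truncated SK3 base (52.3 CPM). The edgeR difference from control in the DN-mHCN2 base was -0.67 (SE 0.224, adjusted p = 0.109), where 2.14% of genes were called. Over both regions it was -0.25 (adjusted p = 0.342) for DN-mHCN2 and 0.14 (adjusted p = 0.843) for truncated SK3. The DN-mHCN2 by region interaction was -0.82 (adjusted p = 0.592), in a contrast that called 0.00668% of genes. Summed Schwann and satellite glia markers were at 9549 to 14255 CPM in the DN-mHCN2 base and 14311 to 28186 CPM in the control base. Across all libraries Glul had r = 0.48 with those markers (permutation p = 0.0279, adjusted p = 0.0745; rho 0.40, permutation p = 0.077), which was 0.25 without the 2 farthest libraries. With supporting cell markers r was -0.25 (permutation p = 0.285, adjusted p = 0.457; rho -0.16, permutation p = 0.472), -0.19 without the 2 farthest libraries and -0.51 (adjusted p = 0.0356) for deviations from the group means. The part of glial RNA in the base difference was not tested. About 15% of the 50-base stretches of the longest Glul transcript occur in other genes, mainly the pseudogene Glns-ps1, so its counts could have been split.

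Slc1a1, the neuronal EAAT3 gene at chr19:28835049-28913960, was low in all groups. Control libraries were at 8.59, 2.93, 7.93 and 4.59 CPM in the apex and 8.37, 7.07, 5.43 and 28.8 CPM in the base. The ranges were 1.42 to 10.8 CPM in the DN-mHCN2 apex, 1.41 to 7.98 CPM in the DN-mHCN2 base, 2.36 to 4.49 CPM in the truncated SK3 apex and 4.74 to 10.6 CPM in the truncated SK3 base, and all neighbouring groups overlapped. Its differences from control over both regions were -0.77 (adjusted p = 0.398) for DN-mHCN2 and -0.81 (adjusted p = 0.635) for truncated SK3. Part of the transcript, 30.1% of its 50-base stretches, is shared with the overlapping antisense gene 4430402I18Rik, and without strand in the counting reads of these genes cannot be told apart.

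Slc1a2, the GLT1 gene at chr2:102658659-102790784, was near its detection limit in many libraries and high in 1. Control libraries ran from 0.610 to 4.38 CPM in the apex and 0.212 to 8.14 CPM in the base. DN-mHCN2 apex libraries ran from 0.166 to 8.71 CPM, and the base libraries were at 51.4, 0.278 and 0.0917 CPM. Truncated SK3 apex libraries were at 9.07, 1.65 and 0 CPM, the last allowing up to 0.253 CPM, and the base libraries at 15.1, 7.83 and 8.51 CPM. Its difference over both regions was 1.46 (adjusted p = 0.476) for DN-mHCN2, which turned to -1.78 without DN-mHCN2 base library 1, and 1.25 (adjusted p = 0.778) for truncated SK3. That library also carried 3470 CPM of fibroblast markers and 2365 CPM of supporting cell markers. Control base library 3 carried 3516 CPM of fibroblast markers, with Slc1a2 at 8.14 CPM. The part of these cells in the Slc1a2 level was not tested. With summed astrocyte markers r was -0.41 (permutation p = 0.062, adjusted p = 0.124; rho -0.41, permutation p = 0.065), and -0.53 (adjusted p = 0.0549) without the 2 farthest libraries. Aldoc, at 211 to 428 CPM across libraries, made up most of that sum, and without it, a choice made after the data were seen, r was 0.05 (adjusted p = 0.829). Gfap, an astrocyte marker also made by some peripheral glia, was at 54.3 to 226 CPM in the truncated SK3 base and at most 19.8 CPM elsewhere. In that group all 3 Slc1a2 libraries were at 7.83 CPM or more. Not every listed astrocyte gene followed Gfap. Fgfr3 was at 3.47 to 6.32 CPM in the truncated SK3 base and reached 194 CPM in the DN-mHCN2 base. Aldoc had a mean of 315 CPM in the truncated SK3 base and 348 CPM in the DN-mHCN2 base. The part of cells with Gfap in the Slc1a2 level was not tested.

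**Figure D5:**
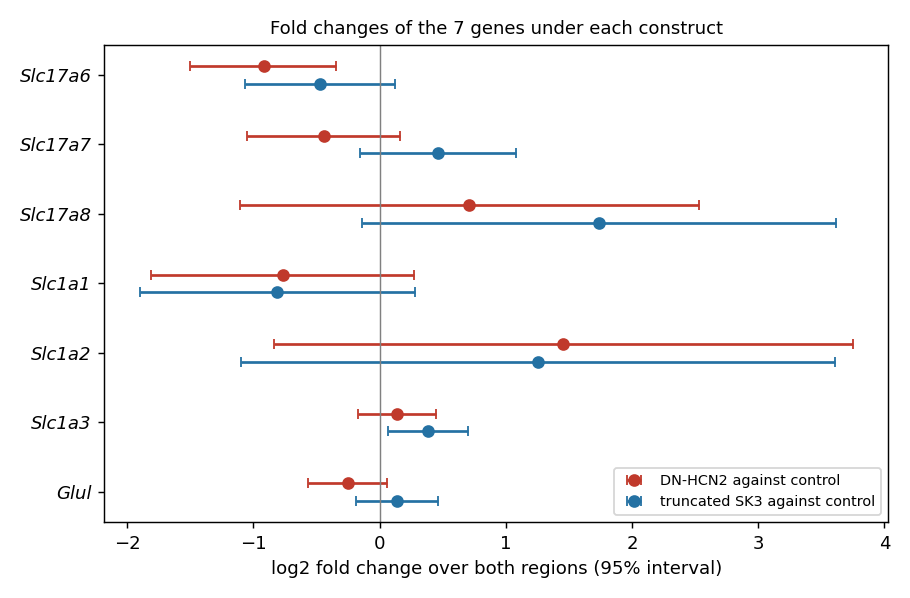
Log2 fold changes of the 7 genes over both regions (horizontal axis) for DN-mHCN2 and truncated SK3 against the same control libraries, with 95% intervals from the edgeR fit that are not adjusted for multiple tests. Slc17a6 is at -0.92 and -0.47 and Slc17a7 at -0.44 and 0.46; no gene passed the adjusted threshold in either comparison, and the intervals of Slc17a8, Slc1a1 and Slc1a2 are the widest.

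The genes most like each of the 7 over the 21 libraries, by Pearson's r of log2(CPM + 1), are given as a description. Sema3a, encoding a repulsive axon guidance cue, was closest to Slc17a6 (r = 0.89), ahead of Ppp6c (0.85) and Sgip1 (0.85). Spock2 (r = 0.94) and Dst (0.93) were among the closest to Slc17a7. For Slc17a8 they were Otof (r = 0.89), which is also in the hair cell list, Atp11a (0.86) and Atp2a3 (0.84). Slc1a2 came with the matrix genes Mmp2 (0.79) and Col5a2 (0.78), after Fkbp7 (0.82). Slc1a1 was nearest to Sars (0.77), Slc1a3 to Zbtb20 (0.70) and Glul to Tmem128 (0.83).

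Among 23 further genes of the glutamate and glutamine cycle, 22 were tested, since Slc1a7 was at 0 in all libraries. The most abundant by count were Got1 (518 CPM), which interconverts glutamate and aspartate, Slc38a2 (436 CPM), a neutral amino acid and glutamine transporter, and Slc25a12 (343 CPM), the mitochondrial aspartate and glutamate carrier. In DN-mHCN2 against control over both regions 2 of 22 fell and 0 rose, against 6.05% of all genes called, and the median log2 difference of the list was -0.07 beside 0.03 for all genes tested. For truncated SK3 0 of 22 were called over both regions (0.735% of all genes), with a median of 0.05 beside 0.01.

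Slc38a2 was at 559, 506, 531 and 494 CPM in the control apex and 430, 433, 508 and 457 CPM in the control base. In DN-mHCN2 it was at 336, 418, 554 and 362 CPM in the apex and 263, 278 and 223 CPM in the base, and the 3 base libraries lay below all others of the study. It fell by 0.58 on the log2 scale over both regions (SE 0.102, adjusted p = 0.00227, called in 15 of 15 fits without a library) and by 0.84 in the base (SE 0.152, adjusted p = 0.00576, 7 of 7). Without both macrophage-rich libraries, which left 1 DN-mHCN2 base library assumed to vary like the other groups, the base difference was -0.77 (adjusted p = 0.117). Against truncated SK3 over both regions the log2 difference of Slc38a2 was -0.52 (edgeR adjusted p = 0.0273), called in 5 of 13 fits without a library. That call was also lost with only the groups compared (adjusted p = 0.22), with a replicate block (0.0617) and without the supporting- and fibroblast-rich libraries (0.0552). Without both macrophage-rich libraries it was lost too, at a difference of -0.48. Slc38a1, a related glutamine transporter, fell by 0.50 in DN-mHCN2 over both regions (SE 0.146, adjusted p = 0.0475), called in 2 of 15 such fits, from 276 to 373 CPM in control libraries to 158 to 415 CPM in the apex and 162 to 207 CPM in the base.

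Of 13 genes for other vesicular transporters and for GABA and glycine handling, 8 were tested. Slc18a3, the vesicular acetylcholine transporter, was at 0 in all libraries, and Slc32a1, the vesicular GABA transporter, had at most 2 counts in a library. Abat, which degrades GABA, was highest at 75.7 CPM. In DN-mHCN2 over both regions 1 of 8 fell and 0 rose (6.05% of all genes called), with a list median of -0.62 beside 0.03, and in truncated SK3 1 of 8 fell and 0 rose (0.735%), with -0.19 beside 0.01.

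The gene called in both was Slc18a2, the vesicular monoamine transporter VMAT2, and both comparisons share the control libraries. Control libraries were at 57.4, 31.8, 42.5 and 50.2 CPM in the apex and 30.8, 28.6, 41.5 and 42.5 CPM in the base. DN-mHCN2 libraries were at 22.2, 9.93, 16.0 and 26.5 CPM in the apex and 23.0, 20.1 and 42.2 CPM in the base, and truncated SK3 libraries at 21.4, 29.4 and 13.4 CPM in the apex and 15.5, 21.4 and 12.8 CPM in the base. It fell by 0.81 (SE 0.239, adjusted p = 0.0485) in DN-mHCN2 and by 1.10 (SE 0.253, adjusted p = 0.0426) in truncated SK3. These calls held in 3 of 15 and 4 of 14 fits without a library. Slc6a13, a GABA transporter known from fibroblast-like meningeal cells, was at 0 in all 3 DN-mHCN2 base libraries and at 35.9, 102, 3.73 and 0.281 CPM in the control base, at least 434-fold lower by the group means with a floor of 3 counts over the group (adjusted p = 0.0489, called in 1 of 7 fits without a library). Without control base library 2 the bound was 162-fold. Slc6a13 was also at 0 in all 3 truncated SK3 apex libraries and at 0.0695 to 0.542 CPM in the control apex. It was at 0 to 1.41 CPM in the DN-mHCN2 apex and 1.12 to 27.7 CPM in the truncated SK3 base. A level near 0 was thus not particular to the DN-mHCN2 base. The call was also lost with RLE factors (adjusted p = 0.0507), no filter (0.0651), only the groups compared (0.222) and without the macrophage-rich (0.32) or the supporting- and fibroblast-rich libraries (0.063).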

How the data were processed

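Smart-seq2 libraries were grouped by the virus and cochlear region in their titles. The deposited values are raw counts from the authors, whole and not normalized, in 21878 lines, of which 3555 were at 0 throughout and 2 names were repeated. The submitters' processing notes name Trimmomatic, HISAT2 and DESeq2, with no version, and GRCm38 (mm10) as the build. How reads were counted, with which annotation and strand setting, is not given in the sources used here. Genes kept by filterByExpr (14968) were TMM-scaled and fitted with edgeR 4.0.16 (robust quasi-likelihood, 1 mean per group, 21 libraries, R 4.3.3) in 12 contrasts, with Benjamini-Hochberg adjustment over all tested genes and a false discovery rate of 0.05. CPM are counts divided by the TMM-scaled total, times 1000000. Over both regions means the average of the regional effects. Tests on simulated data for DN-mHCN2 against control, with 14678 genes, recovered 10.4%, 43.3% and 59.1% of genes changed 1.5-, 2- and 4-fold, with 3 false calls.

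The ratio used a pseudocount of 0.5 count and exact permutation within strata, and marker relations used a pseudocount of 1 CPM and 100000 permutations. Those permutations ran over all libraries, also for deviations from group means, where the p can be too small. Positions and lengths are from the GRCm38 annotation, and promoter sequences from RefSeq. Floors cover counting error only. Named were all 7 genes, called genes and the 3 most abundant of the other lists, the 3 likest genes, and markers a result turns on; 1 gene so named is not reported here. Members and lists were chosen with earlier results of these data known. Alternatives were other size factors, no filter, DESeq2 1.42.0, fewer libraries and a replicate block.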

Additional observations from a re-analysis of the deposited data

Results flagged for a closer look

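Slc1a1 in control base library 4 was at 28.8 CPM, far from the other 3 libraries of that group, which ran from 5.43 to 8.37 CPM. The gap to the nearest was 0.874 of the group's range, against a critical value of 0.829 for 4 samples. Over 24 groups of 4 libraries examined, for the 7 genes and for the ratio of Slc17a6 to Slc17a7, this was the only value so far from its group, and chance gives about 1 in 20. The antisense gene 4430402I18Rik, which overlaps Slc1a1, had 52 counts in that library and 24 to 56 in the other control base libraries, beside 409 for Slc1a1.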

How the results depend on the processing

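Only part of the 84 tests of the 7 genes was followed under the alternatives. Of those fold changes, 530 kept their direction and side of the threshold, 10 gained a call, 10 lost one and 2 reversed. Of the ratio values 83 kept theirs and 1 gained a call. The reversals were Slc1a2 and Slc1a3 in DN-mHCN2 against control over both regions, which without single libraries ran from -1.784 to 2.106 and from -0.0003525 to 0.2374, each negative only without DN-mHCN2 base library 1. Leaving out single libraries, the number of the 7 genes called ran from 0 to 1 for DN-mHCN2 over both regions, in the base, against truncated SK3 and between its regions, and for truncated SK3 in the apex; the cycle genes called in DN-mHCN2 over both regions ran from 1 to 3, and those of the other transporter list from 0 to 1 for each construct. The ratio in truncated SK3 against control ran from -1.065 to -0.739.

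With DESeq2, 1 of the 7 genes was called in DN-mHCN2 over both regions, 1 in the base and 1 in the truncated SK3 interaction, and 4 cycle genes over both regions, 2 in the base and 2 of the other list. The truncated SK3 apex call went to 0 with only the groups compared (Slc1a3 adjusted p = 0.129), with the replicate block (adjusted p = 0.099), without the 2 libraries rich in supporting cell or fibroblast markers (adjusted p = 0.0569) and without the apex libraries over 2000 CPM of supporting cell markers. Cycle genes called in DN-mHCN2 over both regions went from 2 to 1 with RLE size factors, no filter, only the groups compared, the replicate block or without the supporting- and fibroblast-rich libraries. In the base they went from 1 to 2 with only the groups compared or without those libraries. Slc38a1 also lost its call over both regions without the macrophage-rich libraries, a fit that left 1 DN-mHCN2 base library, at a log2 difference of -0.39. The other list went to 0 in DN-mHCN2 with RLE, no filter and without either set of marker-rich libraries, and in truncated SK3 with the replicate block or without the supporting- and fibroblast-rich libraries; with the replicate block Slc18a2 was no longer called in DN-mHCN2 either (adjusted p = 0.0848), though the count stayed at 1; without the macrophage-rich libraries 1 of the 7 genes was called in DN-mHCN2. The cause of these shifts was not tested.

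For deviations from group means r was -0.255 for Slc17a6 with neuron markers, -0.511 for Glul with supporting cell markers (adjusted p = 0.0356) and -0.827 for Slc1a2 with astrocyte markers (adjusted p = 8e-05). Without the 2 farthest libraries it was -0.108 for Slc17a6, 0.555 for Slc17a7 with neuron markers and 0.197 for Slc1a3 with Schwann and satellite glia markers. For Slc1a2 with astrocyte markers without Aldoc it was 0.051, from values not centred on group means. The deviations from group means were not recomputed without Aldoc. All genes called in DN-mHCN2 over both regions numbered 906, against 1730 with DESeq2, 602 with the replicate block, 475 and 455 without the macrophage-rich and the supporting- and fibroblast-rich libraries, and 520 to 1429 without single libraries; in the truncated SK3 apex they numbered 38, against 173 with DESeq2, 7 without the marker-rich apex libraries and 19 to 62. The criterion for pairing by replicate number, a correlation of deviations above 0.1 in every same-numbered pair, was not met. These correlations ran from -0.218 to 0.313 over 48 pairs (median -0.0249), against -0.331 to 0.175 over 135 other pairs. Of 21 libraries, 9 correlated best with their own number. The same-numbered pairs included libraries of different conditions as well as apex and base of the same condition. The criterion therefore cannot decide whether apex and base libraries of a condition were paired. Depth limits Slc17a8 and Slc1a2, each at 0 in 1 library.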
